A study of Caenorhabditis elegans with 36 samples.

Results

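21U-RNAs are the piRNAs of Caenorhabditis elegans, and their loci were chosen as the gene rows whose WormBase symbol starts with 21ur-. Such loci made up 10238 of 31003 gene rows for adult small RNA. They made up 15363 of 46740 rows both for embryo input and for embryo immunoprecipitate (IP). Each locus is 21 nt long in the annotation, so a locus here is a single predicted piRNA position and its value is the number of small RNA reads assigned to it.

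Mature 21U-RNAs begin with uridine, are bound by the Piwi Argonaute PRG-1 and act mainly in the germline. Most are transcribed one by one from short promoters gathered in broad clusters on chromosome IV, and others start at promoters of ordinary genes. Once PRG-1 pairs with a target transcript, RNA-dependent RNA polymerases make secondary small RNAs on it, which other Argonautes carry. These secondary small RNAs can also arise across a gene whose span holds a 21U locus.

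The study asked whether candidate factors named nip act in silencing that is passed on across generations. Small RNAs were sequenced from whole young adults (YA in the labels, called adults here) of 3 groups. There were 3 libraries of the nip2nip3 double mutant, 3 of nip3_qe17 (allele qe17 of nip3) and 2 of wild type (wt). Embryo libraries, 2 per group, came from a mutant labelled nipnip2 and from wt, each as an anti-FLAG M2 IP of the Argonaute NRDE-3 fused to FLAG and as input. The animals of every group were grown at 20 degrees C on HB101 bacteria, and every library used a protocol that does not depend on the 5′ end of the RNA. For 1 wt input library the label gives whole animals and does not mention FLAG, while the other embryo labels give mixed early stages. The gene identifiers behind the nip names are not given in the labels. Nor do the labels say whether libraries of a group were separate cultures, and every p-value therefore reflects the variation among these libraries alone.

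Total counts on genes were 6361904 to 10962034 in the 8 adult libraries, 2957534 to 5957024 in the IP libraries and 1149734 to 2200941 in the inputs. The 95% Wilson interval of a library's 21U share was at most 0.0162 percentage points to either side in adults and 0.0107 in embryos, which covers counting error only. The larval and adult microRNAs let-7, mir-48, mir-84 and mir-241, of which 3 were matched, summed to between 8654 and 14232 CPM (counts scaled to a common library size) in the mutant adults and 6747 to 7366 CPM in wt adults, and held at most 1 count in any embryo library. The 8 embryo-stage microRNAs mir-35 to mir-42 summed to 1971 to 2807 CPM in the mutant adults and 5233 to 7001 CPM in wt adults, so both marker sets set the mutants apart from wt. In embryos these 8 summed to only 91.7 to 168 CPM in inputs and 1.68 to 3.04 CPM in the IP, below every adult library. The embryo-stage set thus did not mark the embryo libraries. Small RNAs at 31 major sperm protein genes summed to 376 to 497 CPM in the mutant adults and 151 to 190 CPM in wt adults. The part of these differences in the results on 21U loci was not tested, and in whole animals fewer cells of a type and less RNA per cell cannot be told apart.

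Most 21U loci of adults were rare and a few were abundant. The mean level over the adult libraries had a median of 0.444 CPM over the 10238 loci, while 67 loci passed 100 CPM and the highest reached 1444 CPM. A read was seen at 10204 loci, and 3468 had counts enough to be tested. The 10 highest loci of each library held 11.9% to 14.9% of its 21U counts in nip2nip3, 12.6% to 17.4% in nip3_qe17 and 19.0% to 19.6% in wt. On this measure both wt libraries lay above every mutant library. The 100 highest loci held 42.0% to 47.5% of 21U counts over all adult libraries.

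The annotated loci lay almost entirely on chromosome IV, which held 14690 of 15363 (95.6%). There they formed a left cluster of 2827 loci in the 1 Mb bins from 4 to 6 Mb and a right cluster of 11550 loci in the bins from 13 to 17 Mb (each bin named by its first megabase). Chromosome IV loci took 96.1% to 97.5% of adult 21U counts in every library. By the RefSeq gene spans of the same assembly as ce11, 5837 loci (38.0%) lay inside a protein-coding gene, 264 inside a pseudogene and 15 inside a long noncoding RNA (lncRNA) gene, and 9125 (59.4%) lay in no other gene. The strand used for counting is not given in the sources used here and the tables hold no read lengths, so piRNA reads and secondary small RNAs of a host gene cannot be told apart at a locus inside one.

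Overlapping 21U loci often had exactly the same adult counts in all 8 libraries. Among 4500 loci with a mean of at least 5 counts, 2616 (58.1%) belonged to 1136 sets of loci with identical counts, leaving 3020 distinct profiles. Of these sets 849 had 2 loci, 236 had 3 and 51 had at least 4, with 5 the most. In 1130 sets the loci overlapped one another, and the other 6 each held a locus without coordinates. The 21ur symbols paired with 2 identifiers numbered 12, and none of these has coordinates here.

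The distance between neighbouring starts set how often counts were shared. Of 1588 neighbouring pairs whose starts lay under 21 nt apart, 1469 (92.5%) had identical counts, and of 4590 pairs farther apart 0 did. At a distance of 1 nt the share was 97.3% of 741 pairs, at 6 to 10 nt it was 78.9%, at 11 to 15 nt 52.2% and at 16 to 20 nt 25% of 20 pairs. The largest sets show the layout. 21ur-12096, 21ur-12972, 21ur-14073, 21ur-1871 and 21ur-9493 start between 14441329 and 14441334 on chromosome IV and shared a mean of 54.4 counts. 21ur-1113, 21ur-11680, 21ur-11937, 21ur-5152 and 21ur-9766 start between 14870577 and 14870582 and shared a mean of 34.5 counts. 21ur-11181, 21ur-11393, 21ur-2708, 21ur-8642 and 21ur-8712 start between 15872575 and 15872580 and shared 20.4, and a set of 5 around 21ur-12846 shared 31.5. Such a set is 1 measurement shared by several names, and the counts over all tested loci of a comparison are therefore also given with 1 locus per set.

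**Figure D1:**
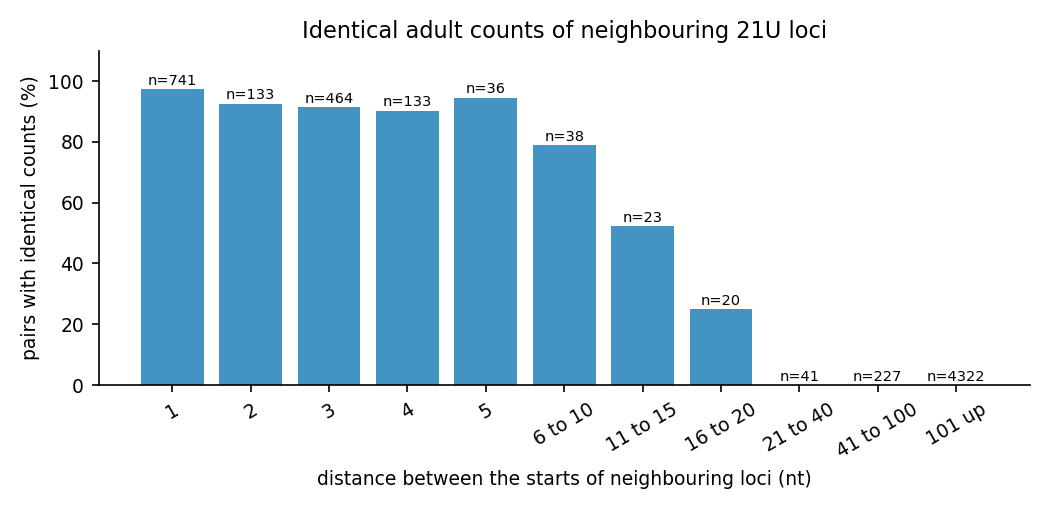
Share of neighbouring 21U loci with identical counts in all 8 adult libraries (y axis, percent) by the distance between their starts (x axis, nt), with the number of pairs n above each bar. The share was 97.3% at 1 nt, 25% at 16 to 20 nt and 0 beyond the length of a locus.

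As a share of all counts, 21U loci took 4.69%, 5.15% and 5.12% in the nip2nip3 libraries, 3.28%, 4.26% and 4.21% in nip3_qe17 and 4.15% and 4.31% in wt. All 3 nip2nip3 libraries lay above both wt libraries and above all nip3_qe17 libraries, while nip3_qe17 overlapped wt. With 1 locus per identical set the shares were 2.11%, 2.64% and 2.60% in nip3_qe17 and 2.70% and 2.77% in wt, which did not overlap (exact permutation test, two-sided, p = 0.2, the smallest possible). The lowest nip3_qe17 library was replicate 1, and without it the difference from wt over all loci was 0.00221 percentage points in place of −0.317. The means were 4.99% ± 0.259 in nip2nip3 (SD, n = 3), 3.91% ± 0.554 in nip3_qe17 (SD, n = 3) and 4.23% ± 0.110 in wt (SD, n = 2). The exact permutation test, two-sided, gave p = 0.2 for nip2nip3 against wt and 0.8 for nip3_qe17 against wt, where 0.2 is the smallest p these groups allow. For nip2nip3 against nip3_qe17 the exact test gave p = 0.1, again the smallest possible, and Benjamini-Hochberg adjustment over 7 such comparisons gave 0.389, 0.8 and 0.389 in this order.

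Set against microRNAs instead of all counts, the group means kept their order and the overlaps between groups changed. Per 100 microRNA counts there were 19.3 ± 1.06 counts at 21U loci in nip2nip3, 15.4 ± 2.02 in nip3_qe17 (SD, n = 3 each) and 19.1 ± 0.802 in wt (SD, n = 2). On this scale nip2nip3 and wt overlapped, whereas every nip3_qe17 library lay below both. MicroRNAs took 25.8% to 26.0% of counts in nip2nip3, 24.9% to 26.2% in nip3_qe17 and 21.9% to 22.4% in wt.

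**Figure D2:**
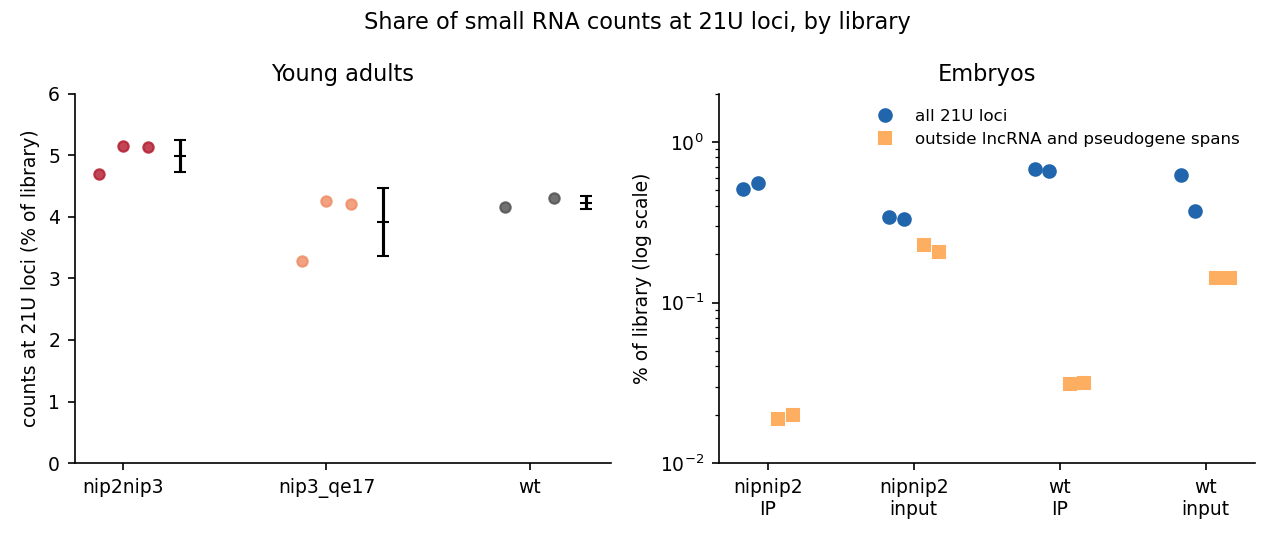
Share of a library's counts at 21U loci. Left, adults (linear axis, percent of library), with points for libraries and bars for the mean ± SD of each group. Right, embryos (log axis), with circles for all 21U loci and squares for loci outside lncRNA genes and pseudogenes. The nip2nip3 libraries lie at 4.69% to 5.15%, above the wt libraries at 4.15% and 4.31%, and in the NRDE-3 IP the squares lie at 0.0188% to 0.0314%, far below the circles.

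In nip2nip3 adults many of the tested piRNA loci were higher than in wt, and few were lower. edgeR's quasi-likelihood test with Benjamini-Hochberg adjustment over all 16585 genes called 944 of 3468 tested 21U loci (27.2%) higher and 56 (1.61%) lower, where the background over all genes was 21.9% higher and 21.3% lower (43.2% in all). The median log2 fold change of the tested loci was 0.66, with the middle of the distribution from 0.27 to 1.07, against 0.05 for all genes. Taking 1 locus per identical set, 657 of 2310 were higher and 44 lower. The calls grew with abundance, with 126 higher loci in the lowest of 4 equal bins of level, 158 and 262 in the middle bins and 398 in the highest, while the medians of the bins stayed between 0.62 and 0.73.

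The count of higher loci depended on how libraries were scaled and on single libraries. With library totals in place of TMM factors, 455 loci were higher and 94 lower with a median of 0.35, where the median of all genes was −0.27. Scaling to summed microRNA counts gave 253 higher and 157 lower, a median of 0.13 and a median of all genes of −0.49. All 944 loci kept a positive value by totals and 935 did by microRNA counts. Leaving out wt replicate 1 left 438 higher and 22 lower, leaving out wt replicate 3 left 590 higher, and leaving out nip2nip3 replicate 2 left 625 higher and 33 lower.

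The clusters differed in how much of them moved. In the left cluster of chromosome IV, 217 of 483 tested loci were higher in nip2nip3 and 4 lower, with a median log2 of 1.04. In the right cluster 708 of 2927 were higher and 41 lower, with a median of 0.61. The left cluster took 0.531%, 0.579% and 0.567% of counts in the nip2nip3 libraries, 0.358%, 0.448% and 0.414% in nip3_qe17 and 0.347% and 0.352% in wt. Every mutant library thus exceeded both wt libraries there, the lowest of nip3_qe17 only barely. The right cluster took 4.02%, 4.42% and 4.41% in nip2nip3, 2.79%, 3.67% and 3.65% in nip3_qe17 and 3.63% and 3.79% in wt, so that only the double mutant lay above wt. Of 41 tested loci off chromosome IV, 13 (31.7%) were higher and 10 (24.4%) lower. On the X chromosome 0 were higher and 5 lower of 8. Over all genes 21.9% were higher and 21.3% lower, so the loci off chromosome IV went both ways as genes in general did. The difference between clusters was not tested, since loci of 1 library are not replicates.

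**Figure D3:**
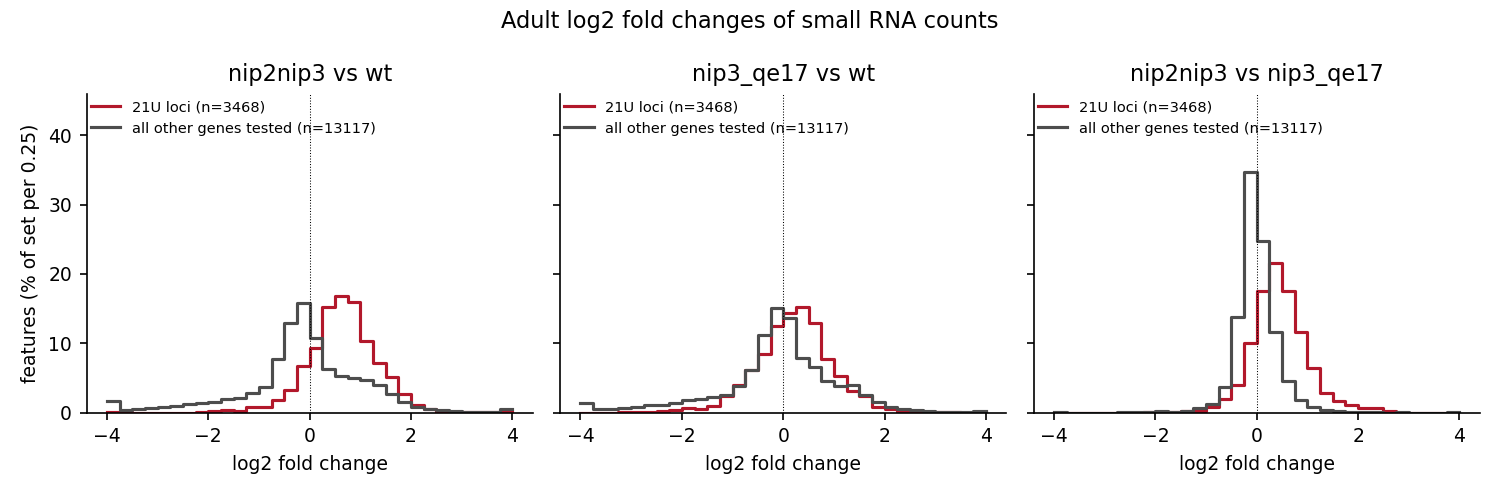
Distribution of log2 fold changes (x axis, bins of 0.25) over the 3468 tested 21U loci and over the other 13117 tested genes, as percent of each set (y axis), for nip2nip3 against wt, nip3_qe17 against wt and nip2nip3 against nip3_qe17. The medians of the 21U loci were 0.66, 0.23 and 0.41, against 0.05, 0.01 and 0.02 for all 16585 tested genes.

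Of the most abundant piRNAs, some rose in nip2nip3 and others gave lower values. 21ur-5666 (WBGene00168809, chrIV:17143259-17143279, ce11), the locus with the highest mean, lies in no other gene, 270 nt from Y116A8C.48. It had 1301, 1633 and 1538 normalised CPM in nip2nip3 (CPM after TMM scaling, edgeR's correction for composition), 868, 1336 and 1082 in nip3_qe17 and 2058 and 1734 in wt. Both wt libraries lay above all mutant libraries, and the log2 fold change was −0.35 ± 0.18 (SE) for nip2nip3 against wt, with an adjusted p of 0.141. 21ur-13093 (chrIV:14745188-14745208, within the protein-coding gene dbd-15) had 517, 632 and 755 CPM in nip2nip3, 433, 799 and 926 in nip3_qe17 and 309 and 271 in wt, and rose by a log2 of 1.13 ± 0.28 in nip2nip3 (adjusted p = 0.00884). 21ur-8285 (chrII:3373666-3373686), within the lncRNA gene linc-11, passed the test in neither mutant, with 601, 623 and 624 CPM in nip2nip3, 632, 591 and 640 in nip3_qe17 and 621 and 545 in wt. The remaining abundant loci had a wide spread between libraries. 21ur-5107 had 576, 353 and 752 CPM in nip2nip3, 92.1, 576 and 324 in nip3_qe17 and 1016 and 1052 in wt.

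The largest rise was at a locus that wt adults barely expressed. 21ur-12981 (WBGene00165233, chrIV:10693264-10693284, within the protein-coding gene R102.4, between the clusters) had 30.9, 18.2 and 18.5 CPM in nip2nip3, 2.63, 1.33 and 1.56 in nip3_qe17 and 0.256 and 0.821 in wt, where the wt values rest on 2 and 7 counts. The 3 groups did not overlap. The log2 fold change of nip2nip3 against wt was 5.31 ± 0.47 (adjusted p = 1.04e-05). The small RNAs of its host gene moved with it, with a log2 of 4.92 for nip2nip3 against wt and 2.14 for nip3_qe17 against wt, both past the threshold.

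Further loci rose in nip2nip3 from low levels in wt. 21ur-7261 (chrIV:6495968-6495988, within Y73B6BL.44) had 16.7, 14.8 and 12.98 CPM in nip2nip3, 7.19, 10.7 and 10.7 in nip3_qe17 and 0.897 and 2.46 in wt, a log2 of 3.10 ± 0.35 for nip2nip3 (adjusted p = 6.12e-05). 21ur-12010, within the nuclear hormone receptor gene nhr-229, had 11.4, 7.26 and 5.42 CPM in nip2nip3, 6.49, 5.50 and 4.21 in nip3_qe17 and 1.15 and 1.88 in wt, and its log2 was 2.36 ± 0.41. In both cases no mutant library came down to the wt values. 21ur-11105 (chrIV:6008478-6008498), in no other gene, had 37.2, 32.2 and 40.1 CPM in nip2nip3, 25.3, 24.8 and 23.5 in nip3_qe17 and 9.10 and 12.1 in wt, with a log2 of 1.78 ± 0.16 for nip2nip3 (adjusted p = 1.04e-05). 21ur-15588, within sec-61.B (the gene of a subunit of the Sec61 protein channel), had a log2 of 2.71 ± 0.72, but its adjusted p became 0.0978 without wt replicate 1.

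Among the named loci, the strongest losses in nip2nip3 were at 21U loci inside genes whose own small RNAs fell. 21ur-10492 and 21ur-10687 both lie in F15D4.5 on chromosome II (chrII:13247294-13247314 and chrII:13246773-13246793). 21ur-10492 had 1.92, 4.65 and 3.37 CPM in nip2nip3, 3.51, 5.12 and 5.50 in nip3_qe17 and 82.3 and 93.9 in wt, a log2 of −4.71 ± 0.24 for nip2nip3 against wt (adjusted p = 1.52e-07). 21ur-10687 had 1.12, 2.47 and 2.35 CPM in nip2nip3, 0.877, 3.41 and 2.75 in nip3_qe17 and 31.3 and 33.9 in wt, a log2 of −3.995 ± 0.35. The host gene F15D4.5 fell by 3.48 on the log2 scale in nip2nip3. 21ur-12557 on chromosome V (log2 −4.003, host F40D4.13 −3.21) and 21ur-15630 on chromosome IV (log2 −3.50, host Y38F2AL.12 −4.73) likewise fell together with their hosts.

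Losses also occurred outside genes. 21ur-5987 and 21ur-14192 start 1 nt apart at 16839711 and 16839712 on chromosome IV and nearly share their counts. 21ur-5987 had 15.2, 15.5 and 14.9 CPM in nip2nip3, 9.997, 13.8 and 14.02 in nip3_qe17 and 55.7 and 52.2 in wt, a log2 of −1.83 ± 0.14 for nip2nip3 (adjusted p = 3.97e-06). 21ur-2649 (chrIV:16838056-16838076) had 43.8, 34.0 and 31.8 CPM in nip2nip3, 25.3, 38.1 and 36.6 in nip3_qe17 and 128 and 90.1 in wt, a log2 of −1.58 ± 0.20. These 3 loci fell within a stretch of under 2 kb in the right cluster, where most tested loci had positive values.

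In nip3_qe17 adults fewer piRNA loci changed, and they went both ways. edgeR called 361 of 3468 tested loci (10.4%) higher than in wt and 157 (4.53%) lower, against a background of 17.8% higher and 19.1% lower over all genes (37% in all). The median log2 fold change was 0.23, against 0.01 for all genes. With 1 locus per identical set 256 were higher and 113 lower of 2310. The left cluster again had the larger median, 0.53 with 93 higher and 9 lower of 483, while the right cluster had 0.18 with 253 higher and 136 lower of 2927. The comparison shares its wt libraries with that of nip2nip3.

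The direction of the nip3_qe17 shift turned with the scaling. Library totals gave 161 higher and 297 lower with a median of −0.05, and microRNA counts gave 99 higher and 512 lower with a median of −0.24, while the medians of all genes were −0.26 and −0.46. The 21U median lay above that of all genes by each of these scalings. A change of scaling moves all genes by nearly the same amount, so this gap could hardly change and is 1 result. Leaving out wt replicate 1 left 153 higher and 68 lower, and leaving out nip3_qe17 replicate 3 left 228 higher and 79 lower.

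Among named loci of nip3_qe17, 21ur-7261 had a log2 of 2.50 ± 0.35 against wt (adjusted p = 3.35e-04). 21ur-2245 (chrIV:6162942-6162962), within unc-77, the gene of a sodium leak channel, had 18.9, 16.7 and 16.3 CPM in nip2nip3, 17.4, 19.6 and 19.3 in nip3_qe17 and 5.38 and 5.51 in wt, and rose in nip3_qe17 by a log2 of 1.79 ± 0.16 (adjusted p = 1.26e-05). 21ur-6666 (chrIV:4854245-4854265), in no other gene, had 20.0, 21.6 and 22.2 CPM in nip2nip3, 19.8, 22.7 and 21.1 in nip3_qe17 and 8.46 and 8.57 in wt, a log2 of 1.32 ± 0.14 for nip3_qe17. Both loci lie in the left cluster, and the spread within each group was small beside the gap to wt. 21ur-2878 within soc-2, a scaffold gene of Ras signalling, and 21ur-11608 within ggtb-1 had log2 values of 2.01 and 2.26.

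On the lower side, 21ur-10492 fell by 4.18 and 21ur-10687 by 3.68 on the log2 scale in nip3_qe17 against wt, with the library values given above. 21ur-5666 fell by 0.79 (SE 0.18, adjusted p = 0.00566) and 21ur-5107 by 1.64 (SE 0.54, adjusted p = 0.0371), so the most abundant piRNA of wt was reduced. 21ur-4920 (chrIV:17207876-17207896) had 1.92, 0.726 and 2.76 CPM in nip2nip3, 0.351, 0.948 and 0.550 in nip3_qe17 and 7.56 and 3.28 in wt, and fell by 3.01 in nip3_qe17. 21ur-12947, on the X chromosome within F02C12.3, had 98.6, 51.7 and 47.6 CPM in nip2nip3, 39.8, 54.0 and 40.8 in nip3_qe17 and 201 and 113 in wt, and fell by 1.80.

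**Figure D4:**
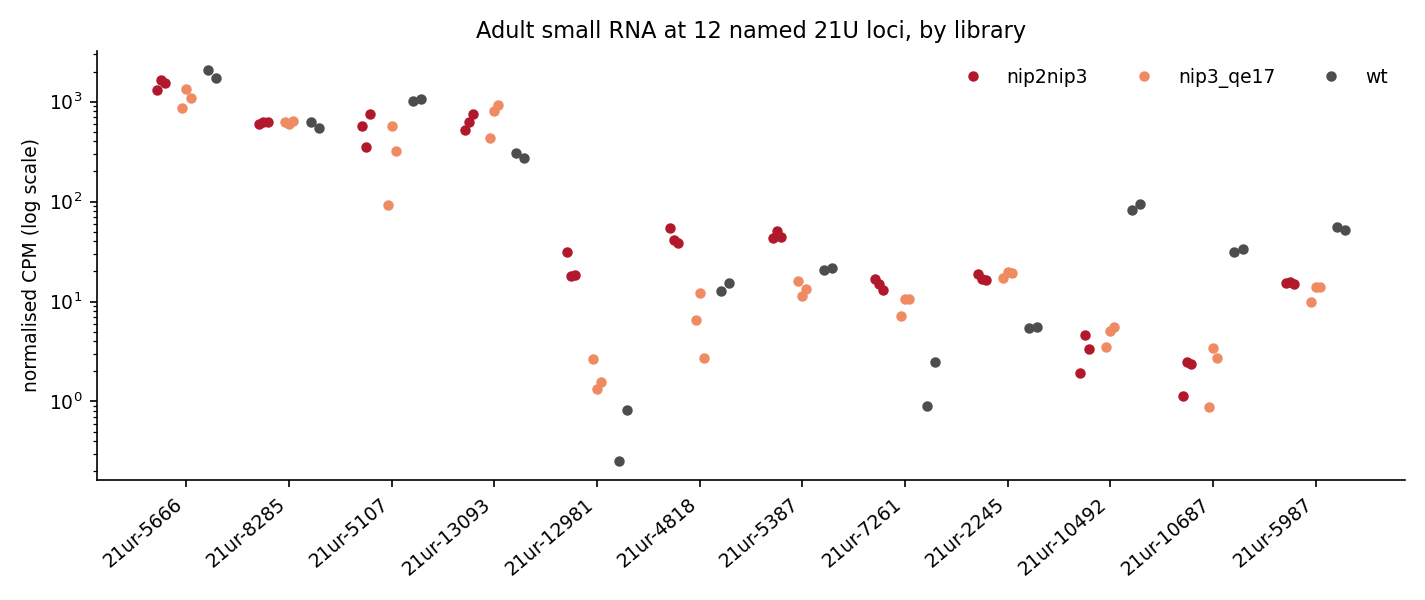
Normalised CPM (y axis, log scale) of 12 named 21U loci in each adult library, with 3 points for nip2nip3, 3 for nip3_qe17 and 2 for wt at each locus. 21ur-12981 stands at 18.2 to 30.9 CPM in nip2nip3 and below 3 CPM in the other libraries, and 21ur-10492 stands at 82.3 and 93.9 CPM in wt and at or below 5.50 CPM in the mutants.

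The mutants differed from each other almost entirely in 1 direction. In the direct comparison edgeR called 178 of 3468 tested 21U loci (5.13%) higher in nip2nip3 than in nip3_qe17 and 1 (0.0288%) lower, against a background of 2.72% higher and 1.47% lower over all genes (4.19% in all). The median log2 was 0.41, with 82.2% of tested loci positive, against 0.02 for all genes. With 1 locus per identical set 121 were higher and 1 lower of 2310. Of the 178 loci, 159 were also called by library totals and 151 by microRNA counts. The left cluster had 28 higher of 483 and the right cluster 147 of 2927, with none lower in either. Leaving out nip2nip3 replicate 2 left 93 higher, and leaving out nip3_qe17 replicate 3 left 68.

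Beside 21ur-12981, whose log2 in this comparison was 3.68 ± 0.33 (adjusted p = 8.71e-05), the largest difference was at 21ur-4818 (chrIV:5623602-5623622), within the chemoreceptor gene srsx-15. It had 54.7, 40.8 and 38.8 CPM in nip2nip3, 6.49, 12.1 and 2.75 in nip3_qe17 and 12.8 and 15.5 in wt, a log2 of 2.64 ± 0.38 (adjusted p = 0.00275). The wt libraries lay between the mutants, and only the difference of nip2nip3 from wt (1.65, adjusted p = 0.00834) passed the threshold, not that of nip3_qe17 (−0.98, adjusted p = 0.10003). 21ur-5387 (chrIV:15332883-15332903), in no other gene, had 43.6, 51.1 and 44.3 CPM in nip2nip3, 15.96, 11.5 and 13.3 in nip3_qe17 and 20.8 and 21.8 in wt. Its log2 was 1.12 (adjusted p = 1.76e-04) for nip2nip3 against wt and −0.67 (adjusted p = 0.00578) for nip3_qe17 against wt, so wt lay between the mutants and differed from both.

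21ur-10302, within Y105C5A.8, had 14.6, 14.5 and 11.04 CPM in nip2nip3, 2.63, 3.22 and 1.92 in nip3_qe17 and 1.54 and 4.81 in wt, a log2 of 2.36 ± 0.34 between the mutants (adjusted p = 0.00294). 21ur-9611 had 12.3, 4.21 and 5.42 CPM in nip2nip3, 0.702, 1.99 and 0.641 in nip3_qe17 and 2.31 and 1.76 in wt, a log2 of 2.62 ± 0.51 (adjusted p = 0.0164, and 0.0926 without nip3_qe17 replicate 3). At both loci nip3_qe17 overlapped wt and nip2nip3 stood above. The single lower locus was 21ur-13439, within the sestrin gene sesn-1 on chromosome I, with 0.641, 1.89 and 1.53 CPM in nip2nip3, 3.68, 4.64 and 7.05 in nip3_qe17 and 2.31 and 5.63 in wt. Its log2 was −1.91 ± 0.45 with an adjusted p of 0.0396, which ended above the threshold (0.0636 to 0.163) when any of 5 of the 6 mutant libraries was left out.

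Loci inside genes were set beside the small RNAs of their host. The 247 loci higher in nip2nip3 than in wt that lay in 1 tested host gene had 85 hosts, so a host can count more than once. The host was also higher for 69 of these loci, lower for 35 and not called for 143. Over all genes, each counted once, 21.9% were higher and 21.3% lower. Of 17 lower loci, in 15 hosts, the host was lower for 11, higher for 3 and not called for 3. For nip3_qe17 the host moved the same way for 25 of 93 higher loci (43 hosts) and 16 of 25 lower loci (19 hosts). In the direct comparison the host did so for 11 of 47 higher loci (28 hosts). Over all genes 17.8% were higher and 19.1% lower in nip3_qe17, and 2.72% higher between the mutants. Loci in no other gene also rose, with 542 of 2149 higher and 36 lower in nip2nip3, against 367 of 1193 higher and 16 lower inside protein-coding genes.

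Loci inside protein-coding genes held a larger part of 21U counts in both mutants than in wt. Loci in protein-coding genes held 40.4%, 40.1% and 40.1% of 21U counts in nip2nip3, 42.0%, 39.9% and 42.5% in nip3_qe17 and 32.8% and 33.4% in wt. Loci in no other gene held 55.5%, 56.1% and 56.2% in nip2nip3, 53.0%, 56.1% and 53.3% in nip3_qe17 and 62.5% and 62.4% in wt. On both measures the mutants overlapped each other and neither overlapped wt. Single abundant loci weigh on these parts: 21ur-5666, in no other gene, held 5.69% and 4.73% in wt and 2.38% to 3.08% in the mutants. Over tested loci the medians differed little. They were 0.71 in protein-coding genes and 0.63 in no other gene for nip2nip3, and 0.26 and 0.21 for nip3_qe17.

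2 loci used in reporter work, 21ur-1 and 21ur-4863, were rare here. 21ur-1 (chrIV:16687107-16687127) had 0, 1 and 2 counts in nip2nip3, 0, 2 and 4 in nip3_qe17 and 0 and 1 in wt, the same counts as 21ur-15371. 21ur-4863 had 7, 10 and 8 counts in nip2nip3, 6, 3 and 12 in nip3_qe17 and 8 and 8 in wt. At this depth no difference was detectable at either, and both had 0 counts in every embryo library.

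Small RNAs at genes of the piRNA pathway were counted in the same adult fits. They measure small RNAs that map to these genes and not their messenger RNA. Of 44 genes listed, 42 were matched and 41 tested. In nip2nip3 5 (12.2%) were higher and 17 (41.5%) lower than in wt, with a median log2 of −0.24, beside 21.9% and 21.3% over all genes. In nip3_qe17 8 (19.5%) were higher and 13 (31.7%) lower with a median of −0.07, beside 17.8% and 19.1%. Between the mutants 0 were higher and 1 lower, beside 2.72% and 1.47%. prg-1, the gene of the Piwi Argonaute itself, had 348 ± 8.47 CPM in nip2nip3, 379 ± 32.9 in nip3_qe17 (SD, n = 3 each) and 655 ± 64.4 in wt (SD, n = 2). meg-4, a gene of a germ granule protein, had 3.71 ± 1.47, 3.69 ± 0.401 and 44.7 ± 7.53 CPM in nip2nip3, nip3_qe17 and wt, and pid-2, required for piRNA-induced silencing, had 210 ± 1.35, 218 ± 3.20 and 383 ± 4.12 CPM. prde-1, a nuclear factor needed to make piRNA precursors, had 50.8 ± 0.229 CPM in nip2nip3, 73.3 ± 4.49 in nip3_qe17 and 34.6 ± 1.57 in wt. It rose in both mutants (log2 0.56 and 1.09) and was the gene called between them (log2 −0.53, adjusted p = 0.00529), ahead of mut-7 (−0.34) and snpc-4 (−0.28), which were not called. attf-6 rose as well, with 177 ± 4.04, 201 ± 4.31 and 105 ± 0.589 CPM in nip2nip3, nip3_qe17 and wt.

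In embryos 21U loci were scarce. They took 0.338% and 0.331% of counts in nipnip2 inputs and 0.623% and 0.369% in wt inputs, and 0.508% and 0.558% in nipnip2 IP and 0.674% and 0.663% in wt IP. A few loci inside noncoding genes dominated the 21U counts of the IP and of wt inputs. In nipnip2 inputs loci in no other gene held 41.5% and 37.6% of 21U counts, and loci inside lncRNA genes 29.8% and 34.6%. Reads were seen at 1109 loci in the inputs and at 299 in the IP. Of 88 input loci with a mean of at least 5 counts, 35 fell into 16 sets with identical counts, among them 21ur-888, 21ur-9288 and 21ur-9971 with a mean of 9.75 and the pair 21ur-5987 and 21ur-14192 with 99. In the IP 4 of 17 such loci formed 2 pairs, 21ur-10824 with 21ur-11898 (mean 374) and 21ur-551 with 21ur-6596 (mean 6). The abundant adult piRNAs 21ur-5107, 21ur-13093, 21ur-11046 and 21ur-3215 had 0 counts in all 8 embryo libraries. A single locus, 21ur-8285 in linc-11, held 45.5% and 41.04% of 21U counts in nipnip2 IP, 56.2% and 58.2% in wt IP, 20.9% and 23.9% in nipnip2 inputs and 47.8% and 40.7% in wt inputs.

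Loci inside lncRNA genes and pseudogenes made up nearly all 21U counts of the NRDE-3 IP. Their share of 21U counts was 96.3% and 96.4% in nipnip2 IP and 95.4% and 95.3% in wt IP. In the inputs it was 33.1% and 37.9% in nipnip2 and 77.1% and 61.6% in wt, and in adults it was 3.05% to 4.28%. Outside these genes 21U loci took 0.0188% and 0.0199% of nipnip2 IP counts and 0.226% and 0.206% of nipnip2 input counts, a ratio of means of 0.0896. In wt they took 0.0310% and 0.0314% of IP counts and 0.143% and 0.141% of input counts, a ratio of 0.219. By library totals the median log2 of IP against input over all tested genes was −4.08 in nipnip2 and −5.45 in wt. A fall on this scale was thus not particular to 21U loci. Of the 15 annotated loci in lncRNA genes, 8 had 0 counts in every embryo library and 21ur-9757 in linc-75 had 1 to 6. The other 6, in linc-11, linc-22, linc-24 and linc-16, held nearly all of the counts.

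**Figure D5:**
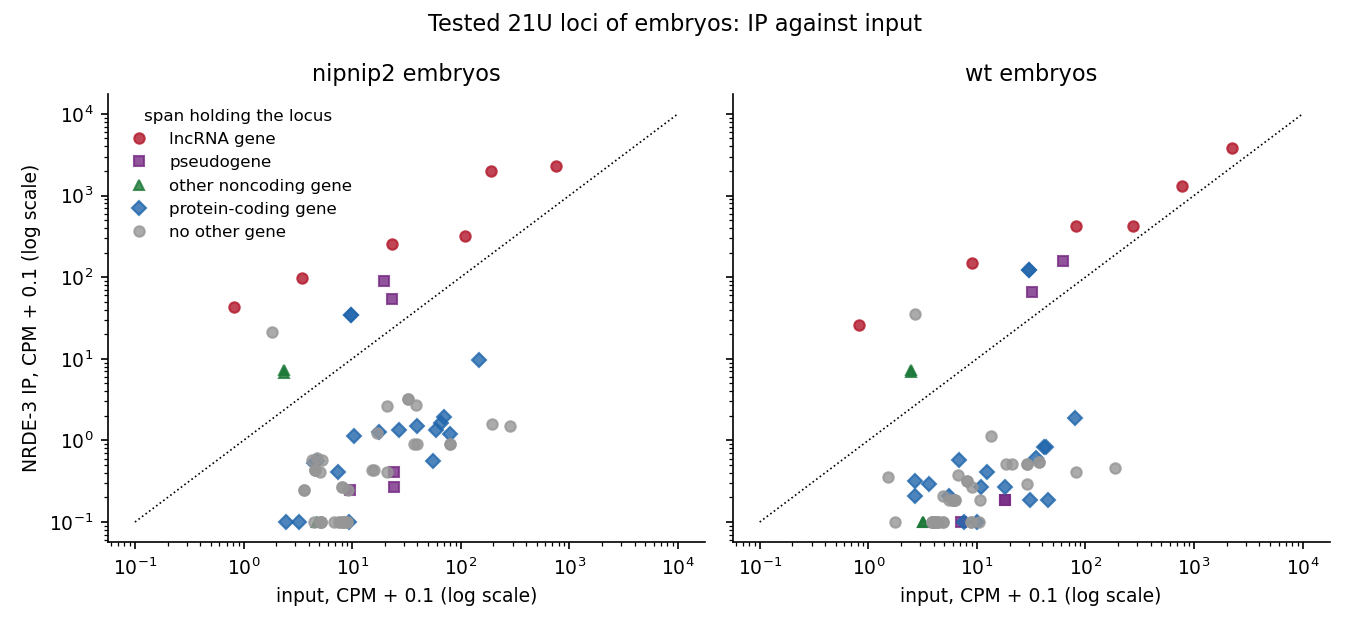
Mean CPM by library totals, plus 0.1, of the 73 tested 21U loci in NRDE-3 IP (y axis) against input (x axis), both on log scales, in nipnip2 (left) and wt embryos (right), marked by the kind of gene whose span holds the locus. The dotted line marks equal values. The 13 loci called higher in the IP, 6 of them in lncRNA genes, lie above the line and the other loci below it.

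By the fit over all embryo libraries, 13 of 73 tested loci (17.8%) were higher in IP than in input in nipnip2 embryos and 14 (19.2%) lower, against a background of 15.8% higher and 14.7% lower (30.5% in all). In wt embryos 13 were higher and 4 lower, against a background of 11.7% and 12.8% (24.5% in all). The 13 loci were the same in both genotypes. Each comparison has its own libraries, but both came from the same fit, with a shared low-count filter and spread. A locus with few input counts could enter that fit through its IP counts, so the agreement is not independent support. They comprised 6 loci in lncRNA genes, 2 in pseudogenes, 2 in protein-coding genes, 2 in another noncoding gene and 1 in no gene, with 5 on chromosome IV. By library totals the same 13 stayed higher in each genotype, but 60 loci (82.2%) were lower in nipnip2 and 59 (80.8%) in wt. Over all genes 92.9% were lower in nipnip2 and 95.3% in wt on this scale, and 2.65% and 2.04% higher. Scaled to microRNA counts 6 of the 13 kept a positive value in nipnip2 and 9 in wt, of which 5 and 4 were still called, and the others turned to lower values without passing the threshold. With 1 locus per identical set, 12 of 60 were higher in each genotype and 13 lower in nipnip2 and 4 in wt.

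21ur-8285 had 8019 and 6776 counts in nipnip2 IP, 1291 and 911 in nipnip2 input, 17100 and 22997 in wt IP and 6132 and 3304 in wt input. Its log2 of IP against input was 5.45 ± 0.36 in nipnip2 and 5.83 ± 0.37 in wt by TMM, and 1.61 and 0.76 by library totals. Scaled to microRNA counts the log2 was −0.50 in nipnip2 and −0.56 in wt, neither past the threshold (adjusted p = 0.247 and 0.192). Both the size and the direction of its IP value thus rested on the scaling. 21ur-9719 (chrX:9072394-9072414, within linc-22) had 6230 and 6418 counts in nipnip2 IP, 313 and 236 in nipnip2 input, 6690 and 6680 in wt IP and 2554 and 712 in wt input. Its log2 was 7.23 in nipnip2 and 5.78 in wt, 3.39 and 0.73 by totals, and 1.28 (adjusted p = 0.00416) and −0.53 (adjusted p = 0.229) by microRNA counts. 21ur-9823 (chrIII:1371141-1371161, within linc-24) had 773 and 853 counts in nipnip2 IP, 42 and 27 in nipnip2 input, 1456 and 3160 in wt IP and 208 and 135 in wt input, and its log2 by totals was 3.45 in nipnip2 and 2.39 in wt.

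Less abundant loci were also among the 13, some of them outside lncRNA genes. 21ur-10686 (chrIV:4894235-4894255), in no other gene, had 57 and 77 counts in nipnip2 IP, 0 and 4 in nipnip2 input, 166 and 205 in wt IP and 8 and 3 in wt input. Its log2 by library totals was 3.90 in nipnip2 and 3.75 in wt. 21ur-12798, in a span shared by the lncRNA gene linc-16 with fbxa-3 and fbxc-19, had 129 and 142 counts in nipnip2 IP, 1 and 1 in nipnip2 input, 128 and 142 in wt IP and 3 and 0 in wt input. 21ur-10824 and 21ur-11898, with identical counts inside the protein-coding gene Y54F10BM.9, had 124 and 98 counts in nipnip2 IP, 15 and 13 in nipnip2 input, 527 and 746 in wt IP and 70 and 57 in wt input. Each of these loci, named from those called higher in the IP, had more counts in every IP library than in either input of its genotype. These counts are not scaled for depth, and every IP library was deeper than every input.

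Several piRNA loci outside noncoding genes were lower in the IP than in the inputs. 21ur-5666 had 5 and 4 counts in nipnip2 IP, 569 and 297 in nipnip2 input, 1 and 3 in wt IP and 252 and 546 in wt input. Its log2 was −3.82 ± 0.44 in nipnip2 and −3.85 ± 0.55 in wt by TMM, and −7.64 and −8.79 by library totals. 21ur-2649 had 2 and 7 counts in nipnip2 IP, 341 and 234 in nipnip2 input, 2 and 1 in wt IP and 157 and 192 in wt input. 21ur-10492 had 4 and 3 counts in nipnip2 IP, 142 and 94 in nipnip2 input, 0 and 1 in wt IP and 108 and 83 in wt input. At these 3 loci each IP library held fewer counts than any input library, although the IP libraries were sequenced more deeply. 21ur-12947 did not pass the test. It had 41 and 22 counts in nipnip2 IP, 318 and 140 in nipnip2 input, 13 and 4 in wt IP and 147 and 199 in wt input, and by TMM its log2 was −0.09 (adjusted p = 0.888) in nipnip2 and −0.56 (adjusted p = 0.378) in wt.

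In nipnip2 inputs the tested loci inside lncRNA genes fell. The share of 21U counts in nipnip2 averaged 0.335% ± 0.00519 in inputs and 0.496% ± 0.180 in wt inputs (SD, n = 2 each), and the exact permutation test gave p = 0.333, the smallest possible (adjusted over 7, 0.389). Outside lncRNA genes and pseudogenes the share was instead higher in nipnip2 inputs, 0.216% ± 0.0147 against 0.142% ± 0.000970 in wt, and the groups did not overlap. On that scale of library totals the median log2 of all genes was also positive, 0.58. edgeR called 0 of 55 tested loci higher and 10 (18.2%) lower, against a background of 1.28% higher and 5.1% lower (6.38% in all), with 15 loci under an unadjusted p of 0.05 and a median log2 of −0.18. With 1 locus per identical set 9 of 45 were lower. DESeq2 also called 0 higher, and 6 lower. All 4 tested loci in lncRNA genes were among the 10, with 2 of 5 in pseudogenes and 4 of 15 in protein-coding genes, while none of the 31 in no gene was. By library totals 9 of the 10 were still called lower, but 14 other loci were called higher and the median was 0.40, where the median of all genes was 0.58. Scaled to microRNA counts 1 of the 10 was still called, and the median of all genes was 1.53.

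From the counts given above, the log2 in nipnip2 input against wt input was −2.14 ± 0.32 at 21ur-8285 (adjusted p = 0.00470), −2.62 ± 0.51 at 21ur-9719 (adjusted p = 0.0166, and 0.0951 by DESeq2) and −2.38 ± 0.28 at 21ur-9823 (adjusted p = 0.00183). The host genes moved the same way, with −2.27 at linc-11, −2.29 at linc-22 and −2.76 at linc-24. linc-22 itself had 29035 and 27806 counts in nipnip2 inputs and 153271 and 131534 in wt inputs, far more than the 21U loci inside it. At the pair 21ur-10824 and 21ur-11898 the log2 was −2.22 ± 0.33, while their host Y54F10BM.9 had 0.14 in the inputs and was not called. In the IP of nipnip2 against wt this host was called lower, as given below. In the inputs the chromosome IV piRNA 21ur-5666 had a log2 of 0.05 ± 0.30, with overlapping groups.

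In the NRDE-3 IP the loss in nipnip2 depended on scaling. The share of IP counts at 21U loci averaged 0.533% ± 0.0356 in nipnip2 and 0.669% ± 0.00798 in wt (SD, n = 2 each), where the groups did not overlap and the exact permutation test gave p = 0.333, the smallest possible. edgeR called 0 of 17 tested loci higher and 13 (76.5%) lower, against a background of 10.1% higher and 23.4% lower (33.5% in all), with 14 loci under an unadjusted p of 0.05 and a median of −1.91 against 0.19 for all genes. With 1 locus per identical set 12 of 15 were lower. DESeq2 also called 13 lower. The sign of the median depended on which loci and libraries entered the fit, being 1.999 with no low-count filter, 0.33 by DESeq2, −0.07 with all embryo libraries in 1 fit and −1.19 with a mean of at least 20 counts. The TMM factors were 1.88 to 2.01 in nipnip2 and 0.498 to 0.531 in wt, and with library totals the median of all genes was 2.09. By those totals 6 loci were higher and 6 lower, and of the 13 only 9 kept a negative value and 6 were still called, while 2 were called higher. Scaled to microRNA counts 3 of the 13 were still called lower.

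A pair of loci with identical counts and a pseudogene locus stayed lower by TMM, library totals and microRNA counts. 21ur-10824 and 21ur-11898 had a log2 of −3.72 ± 0.33 in nipnip2 IP against wt IP by TMM, −1.80 by totals and −1.62 by microRNA counts (adjusted p = 0.0154). Their host Y54F10BM.9 was also lower in that comparison by TMM, with a log2 of −2.81 (edgeR, adjusted p = 8.74e-18). 21ur-13215 (chrIV:8597970-8597990, within the pseudogene Y59H11AR.6) had 198 and 146 counts in nipnip2 IP, 41 and 27 in nipnip2 input, 826 and 782 in wt IP and 144 and 119 in wt input, and its log2 in the IP was −3.47 ± 0.32 by TMM, −1.55 by totals and −1.43 by microRNA counts (adjusted p = 0.0313). 21ur-8285 had −2.64 ± 0.22 by TMM and −0.72 by totals (adjusted p = 0.00101), and lost its call by microRNA counts (−0.55, adjusted p = 0.354). The turned calls were 21ur-9719, with −1.29 by TMM and 0.62 by totals (adjusted p = 0.00975), and 21ur-12798, with −1.20 by TMM and 0.71 by totals (adjusted p = 0.0354).

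The enrichment in the IP was not shown to differ between genotypes at any 21U locus. edgeR called 0 of 73 tested loci in either direction for the difference of IP against input between nipnip2 and wt, against a background of 0.0541% higher and 0.822% lower (0.876% in all), with 6 loci under an unadjusted p of 0.05, and DESeq2 called 3 lower. The smallest p values were at 21ur-13215, where the difference was a log2 of −1.33 ± 0.40 (adjusted p = 0.133), and at 21ur-11898 and its identical partner, with −1.39 ± 0.46 (adjusted p = 0.198). By DESeq2 both passed, with adjusted p of 0.0015 and 0.00252. By edgeR the host of the identical pair, Y54F10BM.9, was called for this difference, with a log2 of −2.82 (adjusted p = 3.44e-05). With library totals 5 loci (6.85%) were called, all higher in nipnip2, beside 17.7% of all genes higher and 0.0973% lower.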

How the data were processed

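Small RNA libraries of adults (8) and embryos (4 inputs and 4 IP) were used, and 20 RNA-seq libraries were not used here. Per the submitters' processing notes, cutadapt, STAR, featureCounts and DESeq2 were used with the ce11 build, and versions and counting options are not given in the sources used here. The authors' deposited embryo tables hold whole counts per gene. Their deposited adult table holds estimated counts, of which 98.0% at 21U loci and 80.2% over all genes were whole, and these were rounded before testing. A symbol was found for 28876 of the 31003 adult rows and for 43720 of the 46740 embryo rows, and positions and gene spans come from RefSeq.

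Whole tables were fitted with edgeR 4.0.16 in R 4.3.3 (quasi-likelihood F-test, filterByExpr, TMM), adjusted by Benjamini-Hochberg over all genes tested and called under 0.05. The packages limma 3.58.1 and data.table (1.17.8) were also used. Adult groups were fitted together, and embryo inputs and IP libraries in separate fits where nipnip2 was set against wt and in a joint fit where IP was set against input. Shares per library were compared by exact permutation with scipy 1.17.1 in Python 3.11.15 (numpy 2.4.6, pandas 2.3.3), and plots used matplotlib 3.10.9. The scripts were tested on simulated data in which known changes had been planted. Every gene of a simulation had the same spread, unlike the real data, so its recovery rates are not given.

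The members and lists were chosen with earlier results of these data known. Named loci were the 6 highest in adults, inputs and IP, the 4 largest changes and 2 smallest p per direction among called loci with a mean of at least 20 counts, groups that do not overlap and no identical partner, 2 reporter loci and the 4 largest identical sets of adults, inputs and IP, and of the pathway list prg-1 and the 3 smallest p per adult comparison. 21ur-14192 and the loci of embryos outside this rule were named with their values in view. The other settings tried were DESeq2 1.42.0, RLE scaling, library totals, microRNA counts, no filter, a mean of at least 20 counts, only the groups compared or all embryo libraries in 1 fit, the replicate number as a block, 1 locus per identical set and each library left out. Embryo columns carry the names wt1, wt2, nip1nip1_1 and nip1nip2_2, which give the group and not the numbered sample. No genome or sequence was used, so motifs and first bases were not analysed here.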

Additional observations from a re-analysis of the deposited data

Results flagged for a closer look

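The tested difference between the mutants picked out 178 21U loci higher in nip2nip3 than in nip3_qe17 and 1 lower. Among the named loci the log2 difference of nip2nip3 against nip3_qe17 was 3.68 at 21ur-12981, 2.64 at 21ur-4818, 2.62 at 21ur-9611, 2.36 at 21ur-10302 and 1.79 at 21ur-5387. It was −1.91 at 21ur-13439, the lower locus. No group held the 4 libraries needed to look for a single library far from the others.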

How the results depend on the processing

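With library totals the counts of higher and lower 21U loci became 455 and 94 for nip2nip3 against wt, 161 and 297 for nip3_qe17 against wt, 14 higher in the embryo input of nipnip2 against wt, 6 and 6 in the IP, and 60 and 59 lower for IP against input in nipnip2 and wt, with 5 higher for the difference between genotypes. With microRNA counts they became 253 and 157, 99 and 512, 3 lower between the adult mutants, 34 and 1 in the input, 4 and 3 in the IP, and 5 and 60 in nipnip2 and 4 and 60 in wt for IP against input. DESeq2 gave 2 lower between the adult mutants, 6 lower in the input and 3 lower for the difference. A mean of at least 20 counts gave 31 lower in nip2nip3 against wt, 1 higher and 8 lower in the IP, 9 lower for IP against input in nipnip2 and 1 lower for the difference. No low-count filter gave 22 and 8 lower for IP against input in nipnip2 and wt and 1 higher for the difference. The cause was not tested. Over all genes library totals called 92.9% and 95.3% lower for IP against input in nipnip2 and wt, and 17.7% higher for the difference. RLE scaling, fits of other sets of samples and 1 locus per identical set kept each count within 1.5 times.

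Leaving out each library gave 438 to 846 higher and 22 to 48 lower for nip2nip3 against wt, 153 to 463 and 68 to 151 for nip3_qe17 against wt, and 68 to 192 and 0 to 1 between the mutants. In embryos it gave 0 to 1 and 9 to 11 in the input, 0 to 1 and 12 to 13 in the IP, 13 to 14 and 6 to 13 for IP against input in nipnip2, 13 and 4 to 7 in wt, and 0 to 1 and 0 for the difference. Whether the adult replicate numbers pair the libraries was not settled. Correlations of same-numbered deviations ran from −0.00466 to 0.212, and those of differently numbered deviations from −0.212 to 0.109. Deviations from the means of groups of 2 or 3 libraries cannot decide it. With the replicate number as a block, 263 loci were higher and 2 lower between the mutants, and with the numbers of the embryo columns as a block 1 was lower for the difference. No paired analysis was possible for nipnip2 against wt in embryos because the groups share fewer than 2 numbers.

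The difference in share of nip2nip3 against wt was 0.759 percentage points, 0.406 with 1 locus per identical set and 0.677 to 0.908 with libraries left out. For IP against input in nipnip2 it was 0.199, 0.236 and 0.173 to 0.224. Per microRNA count the ratio of means was 1.32 in the input of nipnip2 against wt (0.675 of all counts), and 0.363 in nipnip2 and 0.534 in wt for IP against input (1.59 and 1.35). Over the named loci, each in the comparison that named it, 636 values under alternatives kept their direction and side of the threshold, 18 lost the call, 4 gained it and 0 changed sign. This count leaves out loci in comparisons that did not name them. Examples among those are that 21ur-9719 and 21ur-12798 changed sign by library totals in the IP of nipnip2 against wt, and 21ur-8285 in both genotypes and 21ur-9719 in wt did by microRNA counts for IP against input. Depth limits the embryos, where 55 and 17 loci were tested in input and IP, and groups of 2 libraries.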
